A study of Mus musculus with 4 samples.

Results

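The vessels of 4 mouse cerebellar tumors were followed through 9 marker genes: Pecam1, Kdr, Flt1, Tek, Tie1, Cldn5, Esam and Eng of endothelial cells, which line the vessels, and Rgs5 of pericytes, which wrap them. All probe sets that the platform annotation assigns to a single one of these symbols were taken, without regard to their values. This gave 14 probe sets of 8 genes, out of 24679 single-symbol probe sets in the table. Pecam1, the platelet and endothelial adhesion molecule, was not analysed here. The tumors form a single group of genotype Chd7-het on a mixed CD1xC57BL/6 background, Chd7 being the gene of a chromatin remodeller, and they are called tumors 1, 2, 4 and 5 after the numbers in their titles, with 1 Affymetrix Mouse Genome 430 2.0 array each. Chd7-het is the only allele that the labels name, and they give no age, sex or litter. Neither normal cerebellum nor tumors of another genotype were among the samples, so each tumor could be compared only with the other 3, and the p-values measure the spread among these arrays.

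A brain capillary is a tube of endothelial cells sealed by tight junctions and covered by pericytes in a shared basement membrane. VEGF, sensed by the receptors KDR and FLT1, drives endothelial growth and sprouting, while angiopoietins act on the receptor TEK, with TIE1 as its partner, to keep vessels stable. Cerebellar tumors draw their vessels from those of the surrounding brain and meninges. In RNA from whole tissue, fewer cells of a type and less RNA per cell cannot be told apart.

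Values are log2 MAS5 signals as deposited, in which a unit is a doubling. Signals under a floor of 5.12, or 34.8 on the linear scale, were treated as too dim to order; the floor is the median over the arrays of their 40th percentiles and is no detection call. A probe set was tested if its mean over the tumors reached 5.87, the median of all means. On the 4 arrays, 64.7% to 66.9% of single-symbol probe sets had signals over the floor. The granule lineage and hedgehog genes taken to mark the labelled tissue lay above the floor in all 4 tumors in 12 of 12 cases. Tumor 1 stood apart from the rest: 118 of the 13525 probe sets tested passed there in limma at an adjusted p under 0.05 and 2-fold, 100 higher and 18 lower, and 0 did so in each other tumor, where 852, 84 and 480 had an unadjusted p under 0.05 in tumors 2, 4 and 5.

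Among the vessel genes with signals raised to the floor, the pericyte gene Rgs5 varied most. Its highest signal was in tumor 1 and its lowest in tumor 4 on all 4 of its probe sets. Cldn5 ran from the same highest to the same lowest tumor over a narrower range, and Esam differed little. Kdr, Flt1, Tek and Tie1 lay below the floor in every tumor, and Eng reached it in tumor 1 alone. No vessel probe set passed the test in any tumor. Of the 14 probe sets, 6 exceeded the floor in every tumor, 1 in some and 7 in none, against 28.9% of all single-symbol probe sets that stayed under it throughout. The filter on the mean kept 5 of the 14, from 3 genes, and 54.8% of all single-symbol probe sets.

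**Figure D1:**
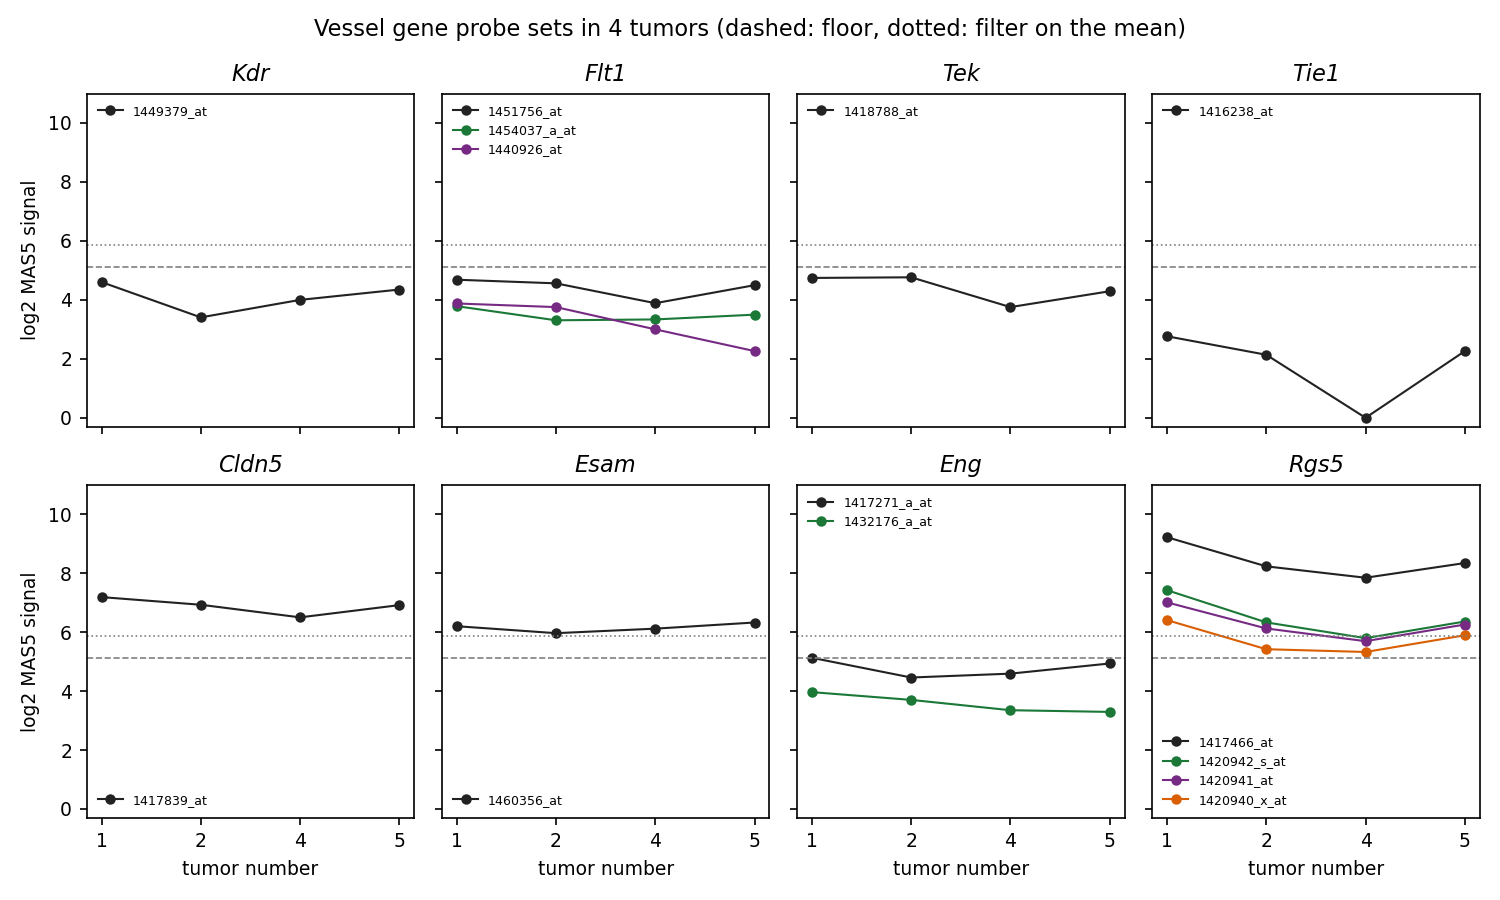
Log2 MAS5 signal (vertical axis) of the 14 vessel gene probe sets in tumors 1, 2, 4 and 5 (horizontal axis), a panel per gene and a line per probe set. The dashed line is the floor of 5.12 and the dotted line the filter of 5.87, and the Rgs5, Cldn5 and Esam lines lie above the floor while those of Kdr, Flt1, Tek and Tie1 lie below it.

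Rgs5 encodes a regulator of G protein signalling that shortens signals from G protein-coupled receptors, and it is a widely used marker of brain pericytes. Its brightest probe set, 1417466_at, read 9.22 in tumor 1, against 8.23, 7.84 and 8.34 in tumors 2, 4 and 5 (mean of the other 3 8.14 ± 0.26, SD, n = 3). On the linear scale these were 595.7 in tumor 1 and 300.3, 229.7 and 324.6 in the other 3. The highest signal was thus in tumor 1 and the lowest in tumor 4.

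The other 3 Rgs5 probe sets, which share an accession and are therefore no independent measurements, placed the tumors in the same order. Probe set 1420942_s_at read 7.42 in tumor 1, against 6.33, 5.79 and 6.36 in tumors 2, 4 and 5. Probe set 1420941_at read 7.01 in tumor 1, against 6.12, 5.69 and 6.26, and 1420940_x_at read 6.41, against 5.42, 5.33 and 5.89. On all 4 probe sets tumor 1 was highest, followed by tumors 5, 2 and 4, an order held by 3.01% of all tested probe sets. Tumors 2 and 5 were close on 1417466_at, 1420942_s_at and 1420941_at. On 1420940_x_at tumor 5, at 5.89, lay about midway between tumor 2 at 5.42 and tumor 1 at 6.41. The fold of the highest over the lowest tumor lay between 2.12 on 1420940_x_at and 3.09 on 1420942_s_at. The SD over the tumors, 0.58 for 1417466_at, 0.68 for 1420942_s_at and 0.55 for 1420941_at, exceeded that of 97.5%, 98.6% and 97.0% of the tested probe sets.

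In the limma fit, tumor 1 minus the other 3 gave Rgs5 differences of 1.08 (SE 0.21, adjusted p = 0.0786) on 1417466_at, 1.26 (SE 0.27, adjusted p = 0.105) on 1420942_s_at and 0.98 (SE 0.27, adjusted p = 0.183) on 1420941_at. These are 2.11-fold, 2.40-fold and 1.98-fold, and none passed. The fit treats the lone tumor as varying like the other 3. With a tumor left out, tumor 1 was compared with only 2 others. Its difference on 1417466_at was then 1.18 without tumor 5, 1.13 without tumor 2 and 0.93 without tumor 4. Which Rgs5 probe sets passed depended on the tumor left out, and so did the count passing over the whole table. With a single probe set per gene in the fit the adjusted p of Rgs5 was 0.0503, and over all settings that of 1417466_at ran between 0.00025 and 0.375.

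The promoters of Rgs5 and Cldn5 are shown because these were the tested vessel genes with the widest ranges. RefSeq's promoter table of GRCm38.p6, with 250 bases before and 50 after the start it takes for a gene, held 7 of the 9 genes, without Esam and Pecam1. For Kdr, Flt1 and Tek that start lies inside the span that RefSeq gives the gene, not at its edge. Capitals mark AGGAA, the core of sites for ETS factors, on either strand, where the reverse strand reads TTCCT. The Rgs5 window is chr1:169655251-169655550, plus strand, and the Cldn5 window chr16:18776597-18776896, plus strand.
Rgs5: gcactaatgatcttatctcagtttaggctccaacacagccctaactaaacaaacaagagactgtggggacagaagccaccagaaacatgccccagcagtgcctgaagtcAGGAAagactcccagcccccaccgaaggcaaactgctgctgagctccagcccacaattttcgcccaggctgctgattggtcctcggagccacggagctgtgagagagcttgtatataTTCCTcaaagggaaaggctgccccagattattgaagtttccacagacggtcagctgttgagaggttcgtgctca
Cldn5: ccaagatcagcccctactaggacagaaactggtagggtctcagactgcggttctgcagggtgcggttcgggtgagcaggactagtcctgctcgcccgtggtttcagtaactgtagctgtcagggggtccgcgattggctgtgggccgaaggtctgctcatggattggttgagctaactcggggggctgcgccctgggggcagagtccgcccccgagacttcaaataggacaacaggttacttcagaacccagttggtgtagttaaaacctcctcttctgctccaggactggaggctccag
The Rgs5 window held 2 matches and that of Cldn5 0. The receptor genes had 1 match for Kdr, 2 each for Flt1 and Tek and 4 for Tie1, and Eng had 3. Of all 32851 windows in the table, 66.7% held at least 1 match and 33.7% held 2 or more, so the letters are common. The CArG box, the serum response factor site of smooth muscle genes, was found in 0 of the 7 windows and in 1.63% of all windows.

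Cldn5 encodes claudin 5, the main claudin of the blood-brain barrier. Its only probe set, 1417839_at, read 7.19, 6.93, 6.50 and 6.92 in tumors 1, 2, 4 and 5 (6.88 ± 0.28, SD, n = 4). Tumor 1 was highest and tumor 4 lowest, 1.61-fold apart, with tumors 2 and 5 within 0.1 of each other. Tumor 4 minus the other 3 gave -0.51 (SE 0.24, adjusted p = 1.00) and tumor 1 minus the other 3 gave 0.41 (SE 0.24, adjusted p = 0.635). Neither passed.

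Esam encodes an adhesion molecule of endothelial tight junctions, also present on platelets. Probe set 1460356_at read 6.20, 5.96, 6.12 and 6.33 in tumors 1, 2, 4 and 5 (6.15 ± 0.15, SD, n = 4). Here tumor 5 was highest and tumor 2 lowest, 1.29-fold apart, and tumors 1 and 4, which mark the ends of the range for Rgs5 and Cldn5, lay between them. The differences of single tumors from the other 3 ran between -0.25 in tumor 2 (SE 0.21, adjusted p = 0.819) and 0.23 in tumor 5 (SE 0.23, adjusted p = 0.954).

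Over the 5 tested vessel probe sets, limma passed 0 in tumor 1, where the background was 0.872% of all tested probe sets, and 0 in each of tumors 2, 4 and 5, where it was 0.0%. An unadjusted p under 0.05 was reached by 3 of 5 in tumor 1, all of Rgs5, against a background of 10.9%, and by 0 of 5 in tumors 2, 4 and 5, against 6.3%, 0.621% and 3.55%. Those 3 probe sets read the same gene. In tumor 4 the differences of the Rgs5 probe sets lay between -0.91 and -0.75, each with an adjusted p of 1.00. In tumors 2 and 5 they lay between -0.24 and -0.017. These values include tumor 1 among the other 3. Without tumor 1, the difference of tumor 4 was -0.44 on 1417466_at, -0.55 on 1420942_s_at and -0.50 on 1420941_at, and those of tumors 2 and 5 were positive, between 0.14 and 0.35. Without tumor 2, 4 of 6 vessel probe sets had an unadjusted p under 0.05 in tumor 4, all of Rgs5, against 1.12% of all tested probe sets, and 0 passed.

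**Figure D2:**
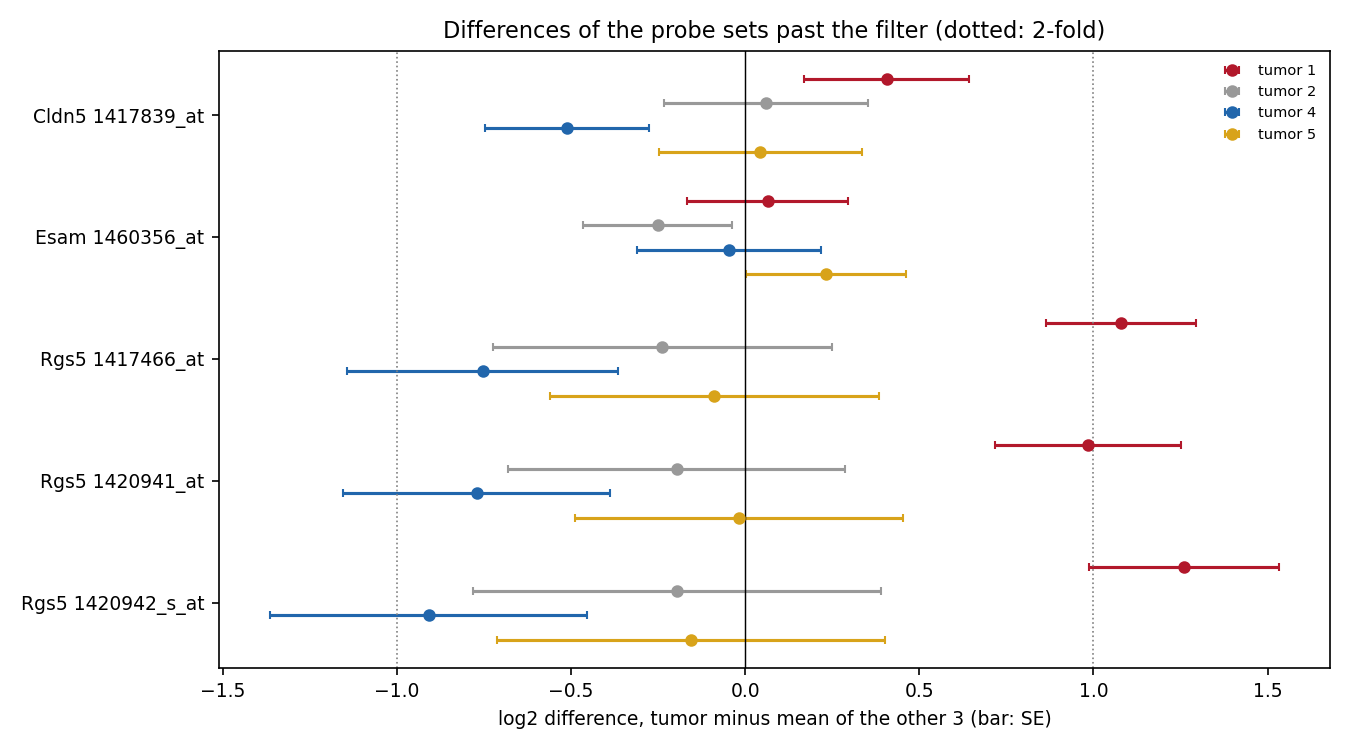
Log2 difference (horizontal axis) of each tumor from the mean of the other 3 for the 5 vessel probe sets past the filter (vertical axis), with bars for the SE of the limma fit and dotted lines at 2-fold. Tumor 1 lies at 0.98 to 1.26 on the Rgs5 probe sets and tumor 4 at -0.91 to -0.75, while the Esam points lie between -0.25 and 0.23.

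Kdr and Flt1 encode the VEGF receptors, Kdr the main signalling receptor and Flt1 a high-affinity receptor whose soluble form traps the ligand. The single Kdr probe set, 1449379_at, read 4.60, 3.41, 4.00 and 4.35 in tumors 1, 2, 4 and 5. The brightest Flt1 probe set, 1451756_at, read 4.68, 4.56, 3.89 and 4.50, so tumor 2 was lowest for Kdr and tumor 4 for this Flt1 probe set. Probe set 1454037_a_at of Flt1 read between 3.31 in tumor 2 and 3.79 in tumor 1, and 1440926_at between 2.26 in tumor 5 and 3.88 in tumor 1. The 3 Flt1 probe sets thus shared their highest tumor and had their lowest in tumors 4, 2 and 5. All these signals lie below the floor, where MAS5 background subtraction makes them noisy, and no fold is given.

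Tek encodes the angiopoietin receptor TIE2 and Tie1 the related receptor without a known high-affinity ligand of its own. Tek, on 1418788_at, read 4.74, 4.77, 3.75 and 4.29 in tumors 1, 2, 4 and 5, with tumors 1 and 2 close and tumor 4 lowest. Tie1, on 1416238_at, read 2.77, 2.14, 0.00 and 2.26, which places all tumors far below the floor and tumor 4 at the lowest value of the table, 1 on the linear scale. Eng encodes endoglin, a co-receptor for TGF-beta family ligands that endothelial cells raise as they divide. Its probe set 1417271_a_at read 5.13, 4.46, 4.59 and 4.94, which crossed the floor in tumor 1 alone, and 1432176_a_at read between 3.29 in tumor 5 and 3.96 in tumor 1. By their signals, the endothelial label therefore rests here on Cldn5 and Esam alone.

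The order of the tumors could still be counted over all probe sets, dim ones included, though several read the same gene. Tumor 1 had the highest signal on 12 of the 14 vessel probe sets, against a background of 27.2% of all single-symbol probe sets, and tumor 4 the lowest on 8, against 21.9%. Among probe sets below the floor in all tumors these shares were 29.1% and 27.4%. Counting each gene by its brightest probe set, tumor 1 was highest for 6 of 8 genes and tumor 4 lowest for 5, against 27.5% and 19.3% of all genes. Apart from Rgs5, tumor 1 was highest on 8 of 10 and tumor 4 lowest on 4 of 10, as tumor 2 was also. The exceptions to tumor 1 were Tek, with tumor 2 highest, and Esam, with tumor 5 highest. Dim signals as a whole differed between the arrays: the 25th percentile stood at 4.04, 4.08, 3.84 and 3.80 in tumors 1, 2, 4 and 5. Over the 7131 probe sets below the floor in all tumors, the median difference as deposited was 0.088 in tumor 1 and -0.076 in tumor 4, and over the 7 vessel probe sets of this kind 0.52 in tumor 1 and -0.30 in tumor 4. After quantile normalization these medians were -0.052 and 0.032 over all such probe sets, with the sign turned, and 0.38 and -0.19 over the vessel ones. Under that normalization, which brings the arrays to the same distribution and was chosen after seeing the data, tumor 1 was highest on 11 of 14 and tumor 4 lowest on 8 of 14, against 23.5% and 17.0% of all single-symbol probe sets.

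**Figure D3:**
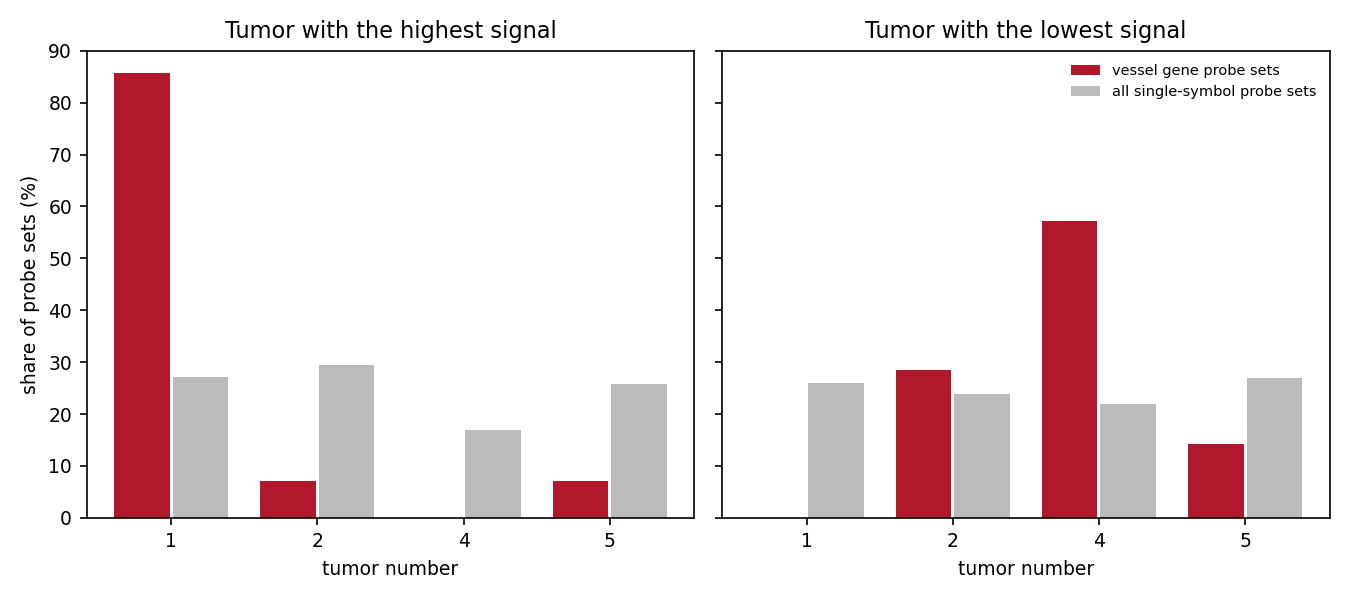
Share of probe sets in percent (vertical axis) on which each tumor (horizontal axis) had the highest signal, left, and the lowest signal, right, for the 14 vessel probe sets and for all 24679 single-symbol probe sets. Tumor 1 is highest on 12 of 14 vessel probe sets against 27.2% of all, and tumor 4 lowest on 8 of 14 against 21.9%.

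With a probe set per gene, the median difference over the 8 vessel genes was 0.47, -0.089, -0.60 and 0.16 in tumors 1, 2, 4 and 5 as deposited, against -0.0086, -0.016, -0.0061 and 0.022 over all 13320 genes. With signals raised to the floor, the same medians were 0.0048, 0, -0.0016 and 0, since 4 of the 8 genes then had the same value in all tumors.

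Other mural cell genes were read next, from a list of pericyte and smooth muscle genes of which 14 were in the table. Of these, 7 stayed under the floor in every tumor and 2 passed the filter, so the list gave little to set beside Rgs5. Vtn, which encodes vitronectin and is made by brain pericytes, read 8.09 in tumor 1, against 6.85, 7.16 and 7.58 in tumors 2, 4 and 5 (difference 0.89, SE 0.28, adjusted p = 0.258). Tumor 1 was highest for Vtn as for Rgs5, and tumor 2 lowest. Myl9, a myosin light chain of smooth muscle, differed by 0.21 in tumor 1 (adjusted p = 0.837). Pdgfrb, the PDGF receptor of pericytes, read 5.72 in tumor 1, against 5.05, 4.84 and 4.50 in tumors 2, 4 and 5, and was above the floor in tumor 1 alone. Kcnj8, a potassium channel subunit of pericytes, lay below the floor throughout. The other 2 list genes above the floor in all tumors had another order: Cspg4, the pericyte proteoglycan NG2, read 5.41, 6.18, 5.77 and 5.14 in tumors 1, 2, 4 and 5, with tumor 2 highest, and Notch3, a receptor of mural cells, read 5.69, 5.79, 5.83 and 5.34, with tumor 4 highest. Over the list as deposited, tumor 1 was highest for 10 of 14 genes, against 27.5% of all genes by their brightest probe set, with 0 of the 2 tested genes passing. Rgs4, the neighbour of Rgs5 on chromosome 1 in RefSeq and itself known from mural cells, read 4.58 in tumor 1, against 3.50, 3.83 and 3.99, all below the floor, and Nuf2, the neighbour on the other side, read 8.33 in tumor 1, against 8.62, 8.86 and 8.67.

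A further list of endothelial genes had 0 passing in tumor 1, with genes on both sides of 0. Of its 24 measured genes, 11 stayed under the floor in every tumor, among them Cdh5, the endothelial cadherin, and Emcn, endomucin, and 8 passed the filter. In tumor 1, 3 of these 8 were higher and 5 lower, 0 passed, and the median was -0.058 against -0.036 over all tested genes. Ramp2, a co-receptor for adrenomedullin, differed by 0.28, S1pr1, a sphingosine phosphate receptor, by 0.37, and Sox18, an endothelial transcription factor, by -0.48 (adjusted p = 0.688, 0.651 and 0.520). As deposited, tumor 1 was highest for 4 of the 24 genes and tumor 2 for 12, against 27.5% and 24.8% of all genes, while tumor 4 was highest for 0 and lowest for 10, against 19.3%. The apelin receptor gene Aplnr had the widest range of the tested ones, with 6.45, 5.73, 5.05 and 6.28 in tumors 1, 2, 4 and 5. Tumor 4 lay below the floor and entered the fit at the floor, with a difference of -1.03 (SE 0.34, adjusted p = 1.00).

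Genes of the blood-brain barrier also had 0 passing. Of 18 measured genes, 9 passed the filter, 0 passed the test in any tumor, and the median in tumor 1 was -0.028. In tumor 4, 7 of the 9 were lower and 2 higher, with a median of -0.15 against 0.0037 over all tested genes. Tumor 2 had the reverse, 7 higher and 2 lower, with a median of 0.13 against -0.017. Slco1c1, the thyroid hormone transporter of brain capillaries, read 6.78 in tumor 4, against 7.41, 7.25 and 7.17 in tumors 1, 2 and 5 (difference -0.49, adjusted p = 1.00). Its signals placed the tumors in the same order as those of Cldn5, with tumor 1 highest and tumor 4 lowest. Slc2a1, the glucose transporter GLUT1, differed by 0.50 in tumor 1 and by -0.61 in tumor 5 (adjusted p = 0.589 and 0.954), and Slc7a5, an amino acid transporter, by -0.49 in tumor 1 (adjusted p = 0.292).

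Ligands and partners of the vessel receptors were read from lists as well. Of the VEGF ligands, Vegfa read 5.78, 5.77, 5.66 and 6.20 in tumors 1, 2, 4 and 5, just under the filter, with tumor 5 highest. Vegfc, the ligand of the lymphatic VEGF receptor, read 6.40 in tumor 1, against 5.59, 5.20 and 5.42 in tumors 2, 4 and 5, also under the filter. Vegfb differed by 0.30 in tumor 4 and the co-receptor gene Nrp1 by 0.34 in tumor 1 (adjusted p = 1.00 and 0.637). Angpt1, the agonist of TEK, read 7.35, 7.53, 7.58 and 7.57, a range of less than 0.3. Among endoglin's partners, 7 genes passed the filter and 0 the test. Id3, a target of BMP signalling, read 7.25 in tumor 1, against 7.65 and 7.89 in tumors 2 and 4 and a higher signal still in tumor 5. Its difference in tumor 1 was -0.60. Of the 7 genes, 2 were higher and 5 lower in tumor 1, with a median of -0.0845 against -0.036 over all tested genes. In tumor 1 all 4 tested Notch genes used in sprouting had a negative difference (median -0.19, against -0.036 over all tested genes). Notch1 lay at -0.38, Nrarp at -0.37, Hey1 at -0.018 and Jag1 at -0.015. The largest differences of these genes were 0.77 for Notch1 in tumor 2 and 0.71 for Nrarp in tumor 5.

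Basement membrane genes of the vessel wall had 8 of 10 genes past the filter and 0 passing in any tumor. In tumor 2, Col4a1, a chain of collagen IV, differed by 0.77 and Sparc, a matrix protein of vessels and glia, by -0.79 (adjusted p = 0.784 for both). In tumor 1 the median was -0.10 and Lama5 led the lower genes at -0.66 (adjusted p = 0.319). In tumor 4 it was -0.20 and in tumor 5 0.33, against 0.0037 and 0.038 over all tested genes.

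**Figure D4:**
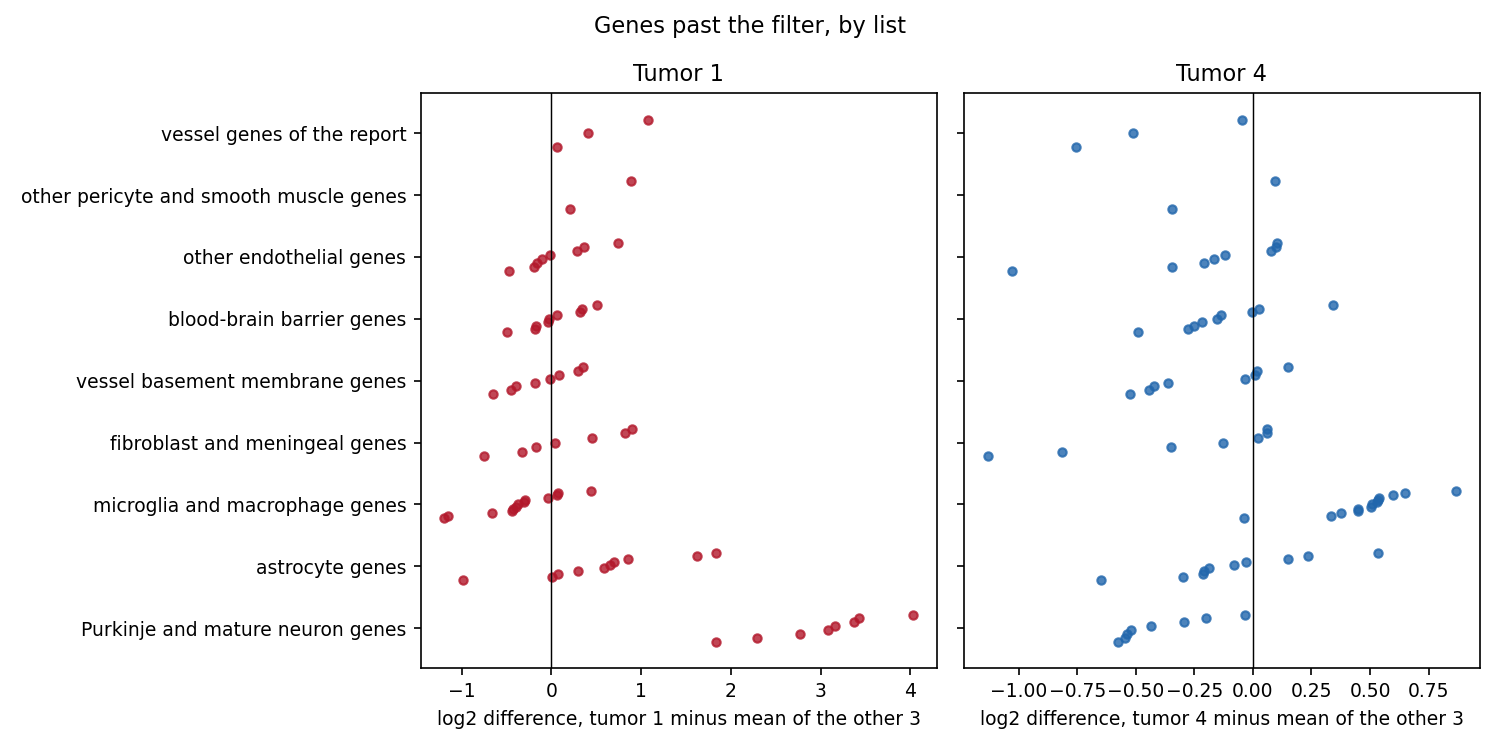
Log2 difference (horizontal axis, its scale set separately for each panel) of tumor 1, left, and tumor 4, right, from the mean of the other 3, for the genes past the filter in 9 lists (vertical axis), a point per gene. The other endothelial and barrier genes lie on both sides of 0 in tumor 1, and the Purkinje and mature neuron genes lie between 1.83 and 4.03.

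Markers of other cells were read in the same tumors. In tumor 1, 8 of 8 tested genes of Purkinje cells and mature neurons were higher, with a median difference of 3.12. The filter took the mean with tumor 1 included, so a gene high there alone could be tested through that tumor. Calb1, for one, read 9.45 in tumor 1, against 3.89, 6.02 and 4.60 in tumors 2, 4 and 5. The count of 8 was thus favoured by the filter. The summed linear signal of the 10 genes in the table was 6970.8 in tumor 1, against 890.3 to 1259.7 in the others. Astrocyte genes summed to 6970.9 in tumor 1, against 4834.1 to 5498.0, with 9 of 10 higher, the Bergmann glia gene Gdf10 by 1.84. The 1 lower gene was Gfap, which read 6.55 in tumor 1, against 7.52, 7.69 and 7.40 in tumors 2, 4 and 5 (difference -0.98). Fibroblast and meningeal genes summed to 2560.6 in tumor 1, against 2502.8 to 2995.1, with 4 of 7 higher and 0 passing. Pdgfra, the brightest of this list, had 1169.7 of that sum in tumor 1, against 1269.5 to 1749.6, and without it the sums were 1390.9 in tumor 1 and 1069.8 to 1362.9 in the others. The collagen gene Col3a1 read 7.66 in tumor 1, against 7.50, 6.71 and 7.41 in tumors 2, 4 and 5, and the growth factor gene Igf2 read 8.29, against 8.03, 6.83 and 7.57, so for both, as for Rgs5 and Cldn5, tumor 1 was highest and tumor 4 lowest. Other genes of the list went the other way. In tumor 1, 3 of the 7 were lower, Aldh1a2 by -0.75, Pdgfra by -0.33 and Igfbp2 by -0.17. The list median there was 0.036, against -0.036 over all tested genes. Col1a2, another collagen gene, read 7.09 in tumor 1, against 6.48, 6.16 and 5.96 (difference 0.89, adjusted p = 0.204). In tumor 4 microglia and macrophage genes, which share Pecam1 with endothelium, summed to 7356.7, against 4269.7 to 5457.4 in the others, with 12 of 13 higher and 0 passing. Choroid plexus genes, of which 2 of 8 passed the filter and 0 the test, summed to 5933.2 in tumor 5, against 731.6 to 1182.9 in the others. A single gene, Ttr, had 4570.9 of the sum in tumor 5, against 4.4 to 51.9, and without it the sums were 1362.3 in tumor 5 and 679.7 to 1174.2 in the others. The brightest genes left were Otx2, highest in tumor 2, and Clic6, highest in tumor 1. As deposited, tumor 5 was highest for 6 of the 8 genes, against 28.3% of all genes. Folr1, Kl, Kcnj13 and Sostdc1 were above the floor in tumor 5 alone, at 6.14, 5.22, 6.17 and 6.67. Platelet genes, of which 3 were in the table, summed to 98.1, 82.4, 91.7 and 82.6 in tumors 1, 2, 4 and 5. Their part in the levels of the vessel genes was not tested.

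The genes nearest to Rgs5 over the 4 tumors were found by centring each tested gene on its own mean and taking the root mean square difference from Rgs5. Of 8497 genes compared, the nearest were Cers6, a ceramide synthase gene, at 0.086, Gfod1 at 0.091, Srr, the serine racemase gene of neurons and glia, at 0.11, and Flrt3, Tmem229b and Tmem41a at 0.13 each, against a median of 0.53. Cers6 read 7.47 in tumor 1, against 6.44, 6.27 and 6.69 in tumors 2, 4 and 5. None of the 6 was on the vessel lists, and Vtn was not among them. Those lists gave few of the 8497 genes, such as 8 other endothelial, 9 barrier and 2 other mural ones. Their absence among 6 genes therefore says little.

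**Figure D5:**
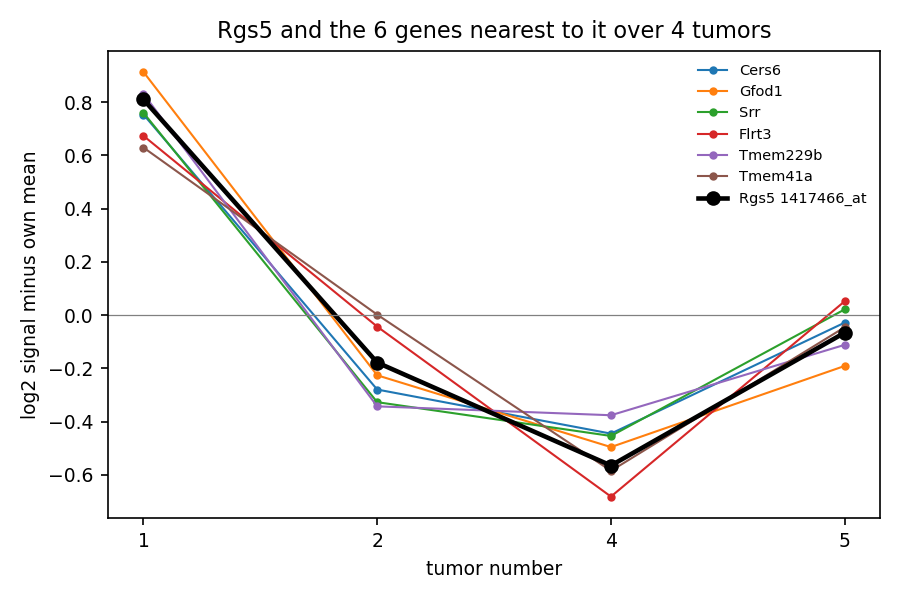
Log2 signal minus the gene's own mean (vertical axis) in tumors 1, 2, 4 and 5 (horizontal axis) for Rgs5 on 1417466_at, thick black line, and the 6 genes nearest to it. All 7 lines have their highest point in tumor 1 and their lowest in tumor 4.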

How the data were processed

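Total RNA of 4 tumors was hybridised to 1 array each. The values are log2 MAS5 signals deposited by the authors, each array summarised and scaled on its own, per the submitters' processing notes; their version and scaling target were not known here, nor were detection calls. As linear signals, 100% of values were multiples of 0.1, within 0.0001. Of 29304 probe sets, 24679 had a single symbol in the platform annotation, 647 several and 3917 none, and 61 were controls. Signals were raised to the floor, and the 13525 single-symbol probe sets past the filter were fitted with limma 3.58.1 in R 4.3.3 (lmFit, eBayes with trend), each tumor against the other 3, with Benjamini-Hochberg adjustment over all of them. A call needed an adjusted p under 0.05 and 2-fold. The fit was tested on simulated data. The number of arrays limits the precision.

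The genes and lists were chosen with earlier results of these data known. Named were all members, list genes that passed or led a list in a tumor, and the 6 genes nearest to the most variable member, its variation taken after the floor. Cdh5, Emcn, Pdgfrb, Kcnj8, Vegfa, Vegfc, Angpt1, Ramp2, S1pr1, Rgs4, Nuf2, Cspg4, Notch3, Pdgfra, Col3a1, Igf2, Col1a2, Ttr, Jag1 and Hey1 were added after their values were seen. So were Folr1, Kl, Kcnj13, Sostdc1, Otx2, Clic6, Aldh1a2, Igfbp2, Gfap, Notch1 and Nrarp. Other floors, filters, normalization and fits, and leaving out each tumor, were tried.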

Additional observations from a re-analysis of the deposited data

How the results depend on the processing

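The count of vessel probe sets passing stayed at 0 in tumors 2, 4 and 5 under every alternative run, and in tumor 1 under every alternative but those leaving out a tumor, where it ran from 0 to 3. The median difference over the vessel genes in tumor 1 was 0.41 with the floor at the 25th percentile and 0.47 with no floor, against 0.0048, and in tumor 4 it was -0.40 and -0.60, against -0.0016; by construction, lower floors hold fewer genes at a constant. Leaving out a tumor, the median ran from 0 to 0 in tumors 1, 2 and 5 and from -0.018 to 0 in tumor 4. The counts of probe sets passing in tumor 1 over the whole table were 40 with the filter at the 75th percentile, 45 with the floor at the 50th, 81 after quantile normalization, and 308 and 293 without tumors 2 and 5, against 118. With no filter 3, 9 and 10 passed in tumors 2, 4 and 5, and without tumor 1, 88 in tumor 2 and 85 in tumor 5, against 0; leaving out any other tumor gave at most 3. Of the differences of single probe sets, none of which passed in tumors 2, 4 and 5, some turned sign. After quantile normalization Esam gave -0.022 in tumor 1 and 0.021 in tumor 4, and Rgs5 on 1420941_at 0.021 in tumor 5. Leaving out a tumor, Esam ran from -0.022 to 0.16 in tumor 1 and from -0.15 to 0.035 in tumor 4, Cldn5 from -0.12 to 0.22 in tumor 2 and from -0.14 to 0.20 in tumor 5, and Rgs5 on 1417466_at, 1420942_s_at and 1420941_at from -0.55 to 0.14, -0.56 to 0.25 and -0.51 to 0.15 in tumor 2 and from -0.38 to 0.31, -0.52 to 0.30 and -0.31 to 0.35 in tumor 5. No paired analysis was possible because the tumors form a single group.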

Other observations

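Other gene groups were read beside the vessels. Of 15 hypoxia response genes in the table, 8 passed the filter and 0 the test in any tumor. In tumor 1, 5 were higher and 3 lower, with a median of 0.20 against -0.036 over all tested genes. Bnip3, a mitochondrial protein induced by low oxygen, read 8.39 in tumor 1, against 7.22, 7.71 and 7.70 in tumors 2, 4 and 5 (adjusted p = 0.192). In tumor 2, 1 was higher and 7 lower, with a median of -0.25.

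Of the PDGF ligands, which recruit pericytes and drive glial progenitors, Pdgfa read 9.33 in tumor 1, against 10.16, 10.06 and 9.69 in tumors 2, 4 and 5 (difference -0.64, adjusted p = 0.281). Tumor 1 was thus lowest for Pdgfa. The other tested ligand gene, Pdgfc, read 6.76, 7.03, 6.82 and 5.97 in tumors 1, 2, 4 and 5, with tumor 5 lowest. Pdgfb, the ligand that endothelial cells release to hold pericytes, lay below the floor in all tumors.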
